A study of Saccharomyces cerevisiae with 24 samples.

Results

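The genes described here are the 36 nuclear genes for subunits of the respiratory chain and the ATP synthase in budding yeast, out of 6692 open reading frames in the count table. They were chosen by name and not by their values: 3 NADH dehydrogenases (NDE1, NDE2, NDI1), 9 genes of complex III (COR1, QCR2, CYT1, RIP1, QCR6 to QCR10), 2 forms of cytochrome c (CYC1, CYC7), 9 genes of complex IV (COX4, COX5A, COX5B, COX6 to COX9, COX12, COX13) and 13 genes of the ATP synthase (ATP1 to ATP5, ATP7, ATP14 to ATP18, ATP20, TIM11). The study asked how cells that lack SNF1, the yeast AMP-activated protein kinase, are rescued by spontaneous suppressor mutations, and measured poly(A) RNA by sequencing in 24 libraries. JS1416 carries the snf1 null allele (snf1∆) together with the suppressor allele cyc8-G337S in a subunit of the Cyc8/Tup1 corepressor, and was sampled in log phase (1 library), at 24 hr (2 libraries) and at 48 hr (3 libraries). JS1394, from which JS1416 was isolated, carries the same snf1 deletion alone, and JS1256 is a WT haploid of the cross that gave JS1394, with 3 libraries each at every time point. JS1416 is a single isolate from a screen of aged cultures, so its values belong to 1 clone, and the log samples are labelled 5 hr in YPD with glucose while the methods give a later hour and SC medium. In the following, a level is in CPM, counts scaled to a common library size, after TMM scaling, which corrects library size for genes that take up a large share of the reads, and a fold change is log2 of the group named first over the group named second, with its standard error (SE).

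In yeast, electrons enter the respiratory chain through single-subunit NADH dehydrogenases, external ones that face the intermembrane space (Nde1, Nde2) and an internal one that faces the matrix (Ndi1), and pass through ubiquinone, complex III, cytochrome c and complex IV to oxygen. The proton gradient this builds across the inner membrane drives the ATP synthase. The genes are repressed while glucose is plentiful and are induced when cells turn to ethanol at the diauxic shift, with the Hap2/3/4/5 complex, which binds CCAAT boxes, as the best known activator. Cytochrome c and subunit 5 of complex IV each exist in an aerobic form (CYC1, COX5A) and a form known as hypoxic (CYC7, COX5B).

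Total counts ran between 747098 and 29070805 a library, and the lowest count of any of the 36 genes in any library was 19. All 36 passed the filter on low counts, none shared a stretch of read length (75 bp) with another place in the genome, and none overlapped another RefSeq gene. SNF1 itself had 0.182 to 4.08 CPM (1 to 32 counts) in the 15 libraries of JS1416 and snf1∆, against 46.2 to 71.7 CPM in the 9 WT libraries. The 2 JS1416 libraries at 24 hr had the lowest TMM factors (0.639 and 0.647), so that comparisons with them move with the scaling, and library size alone moves the whole distribution of log2 fold changes, at its median by -0.82 in JS1416 over snf1∆, by -0.39 in JS1416 over WT and by 0.41 in snf1∆ over WT at 24 hr. Among the genes called, the share called higher then moves to 10.2%, 21.3% and 72.1% in these comparisons, against 42.4%, 47.1% and 52.6% under TMM, and the 36 genes are read below against the median of all genes. Across all genes the 48 hr library labelled snf1∆ replicate 3 correlated best with JS1416 replicate 2 (r = 0.984) and less with snf1∆ replicates 1 and 2 (0.905 and 0.901), while the library labelled JS1416 replicate 1 correlated best with snf1∆ replicates 1 and 2 (0.984 and 0.980) and less with JS1416 replicates 2 and 3 (0.928 and 0.884). Counts at 48 hr are therefore also given without these 2 libraries. Nothing in the labels says that replicates are separate cultures, while the methods speak of triplicate cultures, and p-values measure the spread between these libraries.

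The 36 genes lie on 14 of the nuclear chromosomes, and 33 have a single coding exon. Together they took 1.63% and 1.74% of all counts in JS1416 at 24 hr, against 0.761% ± 0.0303 in snf1∆ and 3.6% ± 0.0458 in WT (SD, n = 3 each). In log phase the share was 0.776% in the JS1416 library, 0.528% ± 0.0140 in snf1∆ and 0.525% ± 0.0469 in WT. These shares are taken of the raw counts and do not depend on TMM, and they put JS1416 at 24 hr between the other strains with no overlap of libraries.

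**Figure D1:**
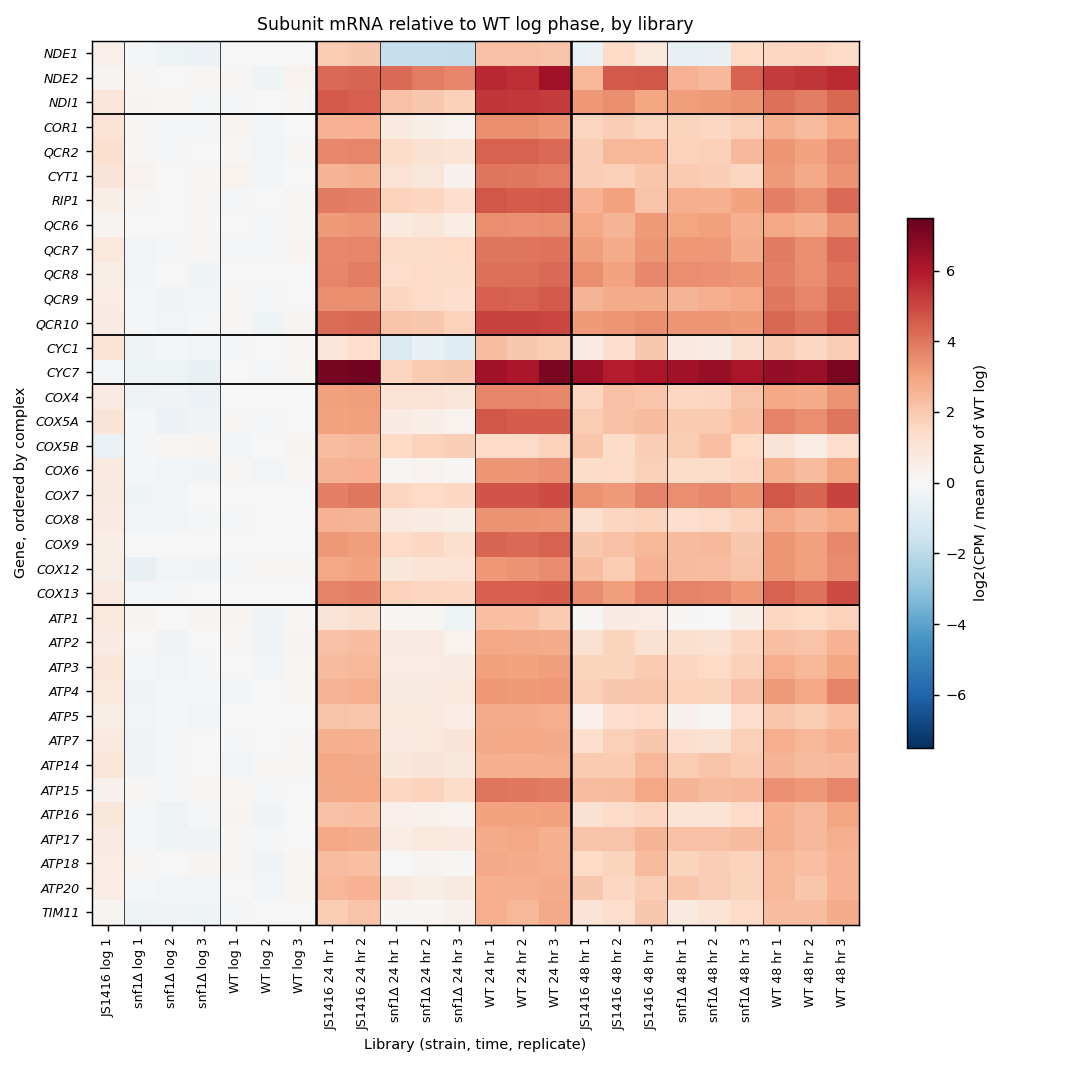
Heat map of the 36 genes (rows, by complex) in the 24 libraries (columns, by time and strain). Color gives log2 of a library's CPM over the mean CPM of the 3 WT log libraries. The WT columns at 24 hr are the darkest red for most rows, the snf1∆ columns at 24 hr are pale and turn blue for NDE1 and CYC1, and CYC7 is the darkest row in JS1416 and WT.

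In WT cells every one of the 36 genes rose by 24 hr. The median log2 fold change of 24 hr over log was 3.41 (10.6-fold), with a range of 1.53 (COX5B) to 6.53 (CYC7), and 41.2% of all 6616 genes tested were called higher in this comparison (edgeR's quasi-likelihood test, Benjamini-Hochberg adjusted p under 0.05). With library size alone the median was 2.90 and again all 36 were called (29.8% of all genes were then called higher). The median was 5.30 for the NADH dehydrogenases, 4.17 for complex III, 4.31 for the cytochromes c, 3.64 for complex IV and 2.78 for the ATP synthase. The order of these medians was not tested. The balance within a library does not depend on how libraries are scaled to each other. The mean log2 level of complex III minus that of the ATP synthase was 0.57 to 0.58 in the WT libraries at 24 hr, against -0.73 to -0.68 in the WT log libraries. Complex IV without COX5B gave 0.11 to 0.20 in WT at 24 hr, against -1.01 to -0.88 in WT log.

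Per kb of coding sequence, the WT genes at 24 hr spanned a wide range of levels. The highest were COX9, subunit VIIa of complex IV, at 8090 ± 432 CPM per kb and ATP15, the epsilon subunit of the ATP synthase, at 7410 ± 347 CPM per kb (SD, n = 3 each). COX9 was above ATP15 in each of these 3 libraries, and the difference was not tested. Both are short (180 and 189 bp of coding sequence) beside reads of 75 bp, and an effect of length on levels per kb was not tested. The lowest were COX5B at 328 ± 40.5, CYC1 at 193 ± 25.9 and NDE2 at 158 ± 48.6 CPM per kb, and CYC1 and NDE2 did not differ beyond their spread.

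In log phase no difference between snf1∆ and WT was detected in these genes. No gene of the 36 was called (0 of 36, also at an unadjusted p under 0.05, and 0 with DESeq2), while fitting only the groups compared called 1, COX4, lower (-0.31, edgeR adjusted p = 0.0267). The median log2 fold change of snf1∆ over WT was -0.17 and the range -0.43 to 0.13, while 2.12% of all genes tested were called in either direction. The libraries did not overlap for 10 of the 36, all lower in snf1∆, where 20% of all genes had such non-overlapping lower libraries.

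By 24 hr the snf1∆ cells had raised most of these genes, by less than WT. Against their own log phase 32 of the 36 rose, 2 fell (NDE1 and CYC1) and 2 were not called (ATP1 and ATP18), with a median log2 fold change of 0.95 (1.93-fold), where 36.5% of all genes were called higher and 30.5% lower. With library size alone 26 rose and 2 fell (30.4% and 33.8% of all genes). The difference between the responses, snf1∆ minus WT, was itself tested and was below 0 for 35 of the 36 (25.6% of all genes), with a median of -2.58. The exception was COX5B at 0.09 ± 0.30 (SE, edgeR adjusted p = 0.816), which rose in both strains.

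At 24 hr 35 of the 36 genes were lower in snf1∆ than in WT (30.3% of all genes tested were), with a median log2 fold change of -2.71 (6.56-fold lower) beside 0.10 over all genes. COX5B was the exception again (0.16 ± 0.21, edgeR adjusted p = 0.517), which library size alone calls higher at 0.58, where it calls 49% of all genes higher (33.7% under TMM). For the 35, no snf1∆ library overlapped a WT library (34.9% of all genes had non-overlapping lower libraries). In JS1416 the same time point gave higher levels than in snf1∆ for 35 of the 36 genes (20.1% of all genes), with a median of 2.02 (4.06-fold), beside -0.16 over all genes. The gene not called was NDE2 at 0.42 ± 0.47 (edgeR adjusted p = 0.489). It was called higher when only the groups compared were fitted (0.56, edgeR adjusted p = 0.00298) and when the 2 48 hr libraries were left out of the fit (0.43, edgeR adjusted p = 0.0477), and was at -0.39 with library size alone. Under TMM both JS1416 libraries lay above the 3 snf1∆ libraries for all 36 genes, where 31.5% of all genes did so. By library size alone those of NDE2 lay below all 3 snf1∆ libraries, and those of COX5B overlapped them. With library size alone the median was 1.21 with 32 genes called higher (7.56% of all genes), and COX5B, at 0.69 ± 0.23 under TMM (edgeR adjusted p = 0.0193), turned to -0.13. Set against the median of all genes, the median of the 36 was 2.18 under TMM and 2.19 with library size alone. A change of scaling moves all genes by nearly the same amount, so this difference could hardly change and is no check of its own.

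JS1416 did not reach WT for most of the chain. Of the 36 genes 23 were lower in JS1416 than in WT at 24 hr, 2 were higher and 11 were not called, with a median log2 fold change of -0.69, where 22.7% of all genes were called lower and 20.2% higher. The genes called higher were CYC7 (0.61 ± 0.23, edgeR adjusted p = 0.0395) and COX5B (0.85 ± 0.23, edgeR adjusted p = 0.00568). Neither was called with library size alone (0.21 and 0.45), which called 30 genes lower (39.7% of all genes). Fitting only the groups compared called 6 more of the 36, and leaving out the 2 48 hr libraries called 4 more. Neither fit lost a call, and the shares of all genes in them were not computed. A gene that was not called is not thereby shown to reach the WT level. Without JS1416 replicate 1 the count of lower genes was 15, and with the other libraries of these groups left out in turn it was at most 21. On a log2 scale with snf1∆ at 0 and WT at 1, the 35 genes that differed between those strains had a median JS1416 position of 0.748, lowest for NDE2 (0.222) and highest for CYC7 (1.15). The median was 0.774 for the 3 NADH dehydrogenases, 0.748 for complex III, 0.907 for the 2 cytochromes c, 0.733 for complex IV without COX5B and 0.748 for the ATP synthase. These positions share their libraries with the fold changes above and carry no test of their own. They use TMM and move with the scaling. The median log2 fold change was 2.02 for JS1416 over snf1∆ and -2.71 for snf1∆ over WT under TMM. It was 1.21 and -2.30 with library size alone, which places JS1416 lower between the other strains.

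**Figure D2:**
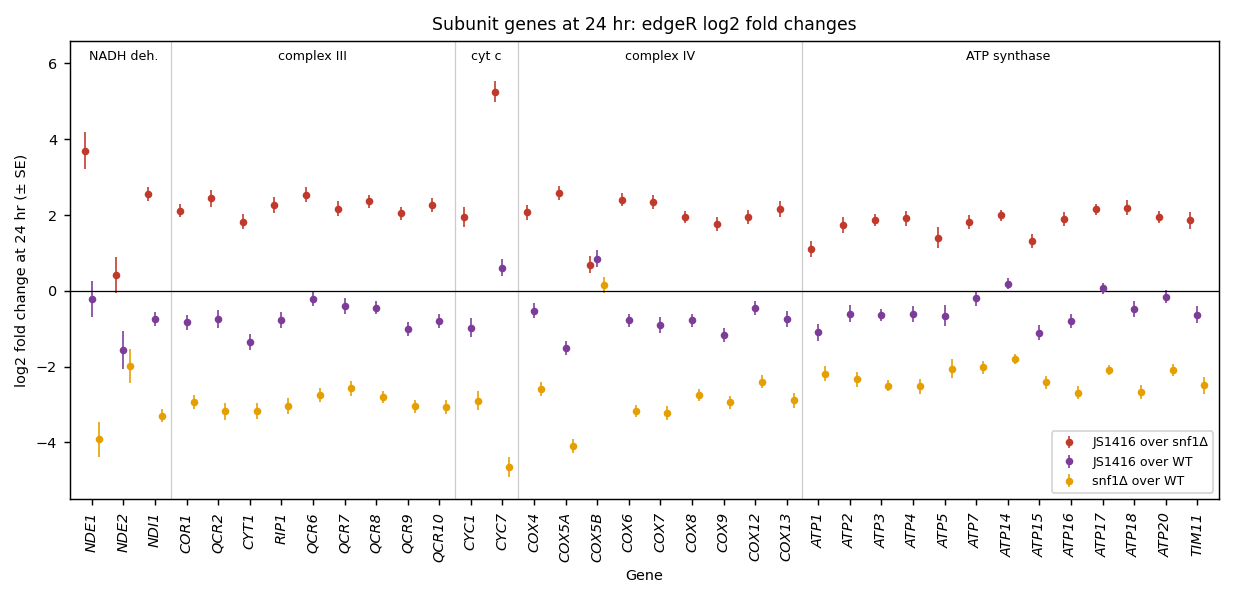
Log2 fold changes (points) with standard errors (bars) of the 36 genes at 24 hr, by complex, for JS1416 over snf1∆, JS1416 over WT and snf1∆ over WT. The JS1416 over snf1∆ points lie above 0, the snf1∆ over WT points lie below 0 except for COX5B, and most JS1416 over WT points lie a little below 0.

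Complex III moves electrons from ubiquinol to cytochrome c, and its 9 genes were all lower in snf1∆ than in WT at 24 hr, with log2 fold changes of -3.18 to -2.57. QCR2 (YPR191W, chrXVI:919381-920487), which encodes a core subunit, had 1040 and 1110 CPM in JS1416, 228, 189 and 177 CPM in snf1∆ and 1900, 1840 and 1650 CPM in WT. CYT1 (YOR065W, chrXV:447439-448368), cytochrome c1, had 431 and 470 CPM in JS1416, 158, 136 and 91.5 CPM in snf1∆ and 1200, 1170 and 1080 CPM in WT. The 3 strains were separate for both genes, with JS1416 nearer to snf1∆ in CPM for CYT1. QCR10 (YHR001W-A, chrVIII:107826-108122), a small accessory subunit, had 622 and 668 CPM in JS1416, 150, 138 and 113 CPM in snf1∆ and 1130, 1120 and 1110 CPM in WT. QCR7 (YDR529C, chrIV:1496165-1496548) had 946 and 987 CPM in JS1416, 216, 207 and 223 CPM in snf1∆ and 1260, 1250 and 1330 CPM in WT. QCR6 (YFR033C, chrVI:224326-224769), the acidic hinge subunit, had 722 and 799 CPM in JS1416, 129, 146 and 117 CPM in snf1∆ and 894, 855 and 895 CPM in WT. For all 3 of these genes the JS1416 libraries lay between the snf1∆ and WT libraries with no overlap, and for QCR6 they came closest to WT.

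Among the complex III genes, the log2 fold change of snf1∆ over WT was -3.18 ± 0.22 for QCR2, -3.17 ± 0.20 for CYT1, -3.07 ± 0.18 for QCR10, -2.75 ± 0.19 for QCR6 and -2.57 ± 0.20 for QCR7, with edgeR adjusted p-values between 2.65e-11 (QCR10) and 8.21e-10 (QCR7). In JS1416 over WT, CYT1 was the lowest of the complex at -1.35 ± 0.22 (edgeR adjusted p = 4.33e-05), while QCR6 at -0.21 ± 0.20, QCR7 at -0.40 ± 0.21 and QCR8 at -0.44 ± 0.18 were not called.

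Complex IV, cytochrome c oxidase, holds both the gene with the largest deficit after CYC7 (COX5A) and the gene not called (COX5B), which form an isoform pair described separately. COX7 (YMR256C, chrXIII:778945-779127), a small subunit, had 462 and 515 CPM in JS1416, 101, 90.3 and 98 CPM in snf1∆ and 873, 856 and 996 CPM in WT. COX6 (YHR051W, chrVIII:209705-210151), a matrix-side subunit, had 542 and 569 CPM in JS1416, 102, 111 and 102 CPM in snf1∆ and 921, 926 and 1000 CPM in WT. In both genes JS1416 stood between snf1∆ and WT with no overlap. COX6 in the snf1∆ libraries at 24 hr had 102 to 111 CPM, against 76.0 to 84.2 CPM in snf1∆ log phase. The log2 fold change of snf1∆ over WT at 24 hr was -3.23 ± 0.19 for COX7 and -3.17 ± 0.16 for COX6 (edgeR adjusted p = 2.80e-11 and 9.60e-12), and that of JS1416 over snf1∆ was 2.34 ± 0.19 and 2.40 ± 0.17 for the same genes (edgeR adjusted p = 7.16e-09 and 8.80e-10).

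The ATP synthase makes ATP from the proton gradient, and its 13 genes had a smaller median deficit in snf1∆ than those of complexes III and IV, by an order that was not tested, with a median log2 fold change of -2.33 against WT at 24 hr. ATP1 (YBL099W, chrII:37053-38690), the alpha subunit of the catalytic head, had 1740 and 2060 CPM in JS1416, 982, 987 and 696 CPM in snf1∆ and 4330, 4220 and 3570 CPM in WT. Its snf1∆ level at 24 hr overlapped the snf1∆ log level of 891 to 1050 CPM. ATP16 (YDL004W, chrIV:443029-443511), the delta subunit of the central stalk, had 510 and 536 CPM in JS1416, 147, 139 and 135 CPM in snf1∆ and 903, 888 and 923 CPM in WT. ATP4 (YPL078C, chrXVI:408010-408744), subunit b of the peripheral stalk, had 756 and 857 CPM in JS1416, 208, 207 and 227 CPM in snf1∆ and 1220, 1210 and 1250 CPM in WT. These 3 genes again placed JS1416 between the other strains. Subunit h, encoded by ATP14 (YLR295C, chrXII:721999-722373), had 363 and 352 CPM in JS1416, 88.5, 95.5 and 85.8 CPM in snf1∆ and 306, 311 and 321 CPM in WT. Subunit f, encoded by ATP17 (YDR377W, chrIV:1228611-1228916), had 423 and 400 CPM in JS1416, 83.2, 99.9 and 94.2 CPM in snf1∆ and 395, 424 and 361 CPM in WT. Subunit i/j, encoded by ATP18 (YML081C-A, chrXIII:103983-104162), had 454 and 431 CPM in JS1416, 92.4, 105 and 94.6 CPM in snf1∆ and 651, 609 and 596 CPM in WT. In JS1416 the ATP14 libraries were above all WT libraries and the ATP17 libraries lay among them, though neither gene was called in JS1416 over WT (0.19 ± 0.15 and 0.07 ± 0.15, edgeR adjusted p = 0.324 and 0.748, or -0.20 and -0.33 with library size alone). In snf1∆ over WT, the ends of the ATP synthase range were ATP16 at -2.69 ± 0.17 and ATP14 at -1.80 ± 0.14 (edgeR adjusted p = 1.11e-10 and 1.35e-09).

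**Figure D3:**
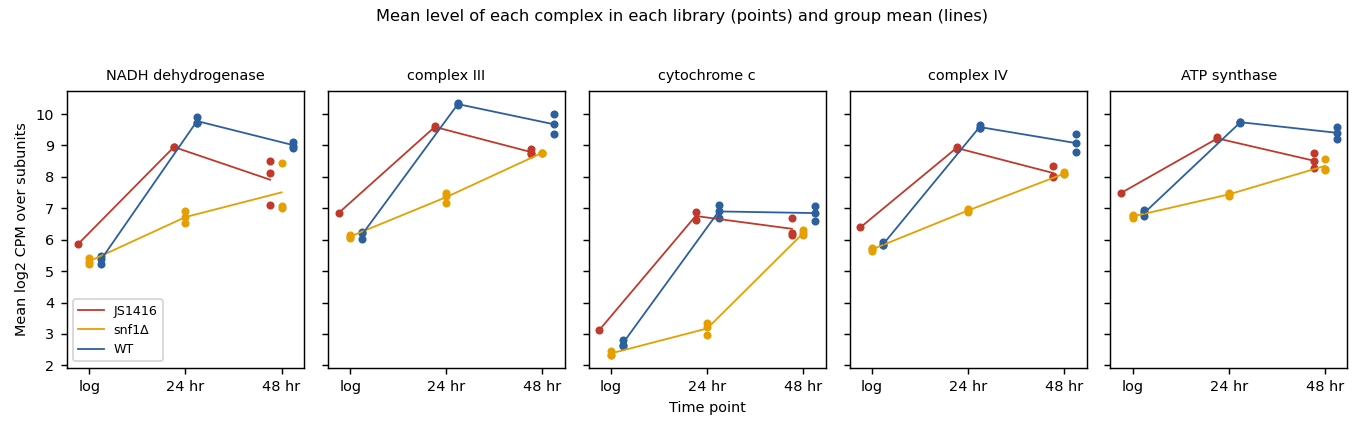
Mean log2 CPM over all subunit genes of each complex (COX5B included) in each library (points), with lines through the group means, at log, 24 hr and 48 hr. At 24 hr snf1∆ is the lowest strain in every panel, and at 48 hr its libraries lie among or close to those of JS1416.

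Cytochrome c carries electrons between complexes III and IV, and has 2 isoform genes. CYC7 (YEL039C, chrV:79636-79977) had 344 and 373 CPM in JS1416 at 24 hr, 7.70, 9.82 and 10.3 CPM in snf1∆ and 199, 168 and 335 CPM in WT. CYC1 (YJR048W, chrX:526335-526664) had 28.3 and 37.2 CPM in JS1416, 7.46, 10 and 8.03 CPM in snf1∆ and 73.1, 62.0 and 56.3 CPM in WT. Under TMM the JS1416 libraries were above all WT libraries for CYC7 and below them for CYC1. By library size alone the CYC7 libraries of JS1416 and WT overlapped. The log2 fold change of JS1416 over snf1∆ was 5.26 ± 0.27 for CYC7 (4.44 with library size alone) and 1.94 ± 0.26 for CYC1 (edgeR adjusted p = 1.58e-11 and 5.87e-06). In log phase CYC7 was among the lowest of the 36 genes, at 2.26 CPM in JS1416, 1.73 to 1.92 CPM in snf1∆ and 2.37 to 2.70 CPM in WT, and the snf1∆ cells did raise it by 24 hr (2.32 ± 0.27) while CYC1 fell by 0.62 ± 0.24 (edgeR adjusted p = 2.32e-07 and 0.0302).

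Subunit 5 of complex IV differed from cytochrome c in snf1∆, where its form known as hypoxic was not called lower than in WT. In JS1416 at 24 hr the 2 pairs were alike under TMM. Its libraries then lay above WT for both forms known as hypoxic and below WT for both aerobic forms. By library size alone the CYC7 libraries of JS1416 and WT overlapped. COX5A (YNL052W, chrXIV:531725-532186) had 664 and 695 CPM in JS1416 at 24 hr, 126, 117 and 97.6 CPM in snf1∆ and 2030, 1880 and 1890 CPM in WT. COX5B (YIL111W, chrIX:155222-155765) had 259 and 281 CPM in JS1416, 148, 169 and 186 CPM in snf1∆ and 139, 139 and 171 CPM in WT. The COX5A groups were far apart, while under TMM the COX5B libraries of snf1∆ and WT overlapped and those of JS1416 lay above both. By library size alone the COX5B libraries of snf1∆ lay above those of WT and overlapped those of JS1416. COX5A was lower in snf1∆ than in WT by -4.09 ± 0.18 and higher in JS1416 than in snf1∆ by 2.58 ± 0.18 (edgeR adjusted p = 1.54e-12 and 8.80e-10), and JS1416 stayed below WT at -1.51 ± 0.19 (edgeR adjusted p = 2.88e-06).

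The NADH dehydrogenases split in another way. NDE1 (YMR145C, chrXIII:554793-556475) had 1180 and 1240 CPM in JS1416 at 24 hr, 95, 94.7 and 89.7 CPM in snf1∆ and 1420, 1450 and 1360 CPM in WT. NDE2 (YDL085W, chrIV:303211-304848) had 84.1 and 91.7 CPM in JS1416, 81.3, 61.8 and 54.7 CPM in snf1∆ and 219, 206 and 350 CPM in WT. NDI1 (YML120C, chrXIII:28266-29807) had 1180 and 1080 CPM in JS1416, 218, 198 and 165 CPM in snf1∆ and 1960, 1920 and 1810 CPM in WT. For NDE1 both JS1416 libraries lay below those of WT, and the difference was not called (-0.22 ± 0.47, edgeR adjusted p = 0.733). That SE comes from the fit of all 24 libraries, where NDE1 ran from 207 to 891 CPM in snf1∆ at 48 hr. It does not measure the spread of the 24 hr libraries alone. Under TMM the NDE2 libraries of JS1416 lay above those of snf1∆ and below those of WT. By library size alone they lay below all snf1∆ libraries. NDE1 was the one gene of the chain besides CYC1 whose level fell in snf1∆ by 24 hr, to 89.7 to 95 CPM against 229 to 285 CPM in snf1∆ log phase (-1.43 ± 0.43, edgeR adjusted p = 0.00611). NDE2 rose in the same cells by 3.83 ± 0.49 (edgeR adjusted p = 9.51e-07).

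**Figure D4:**
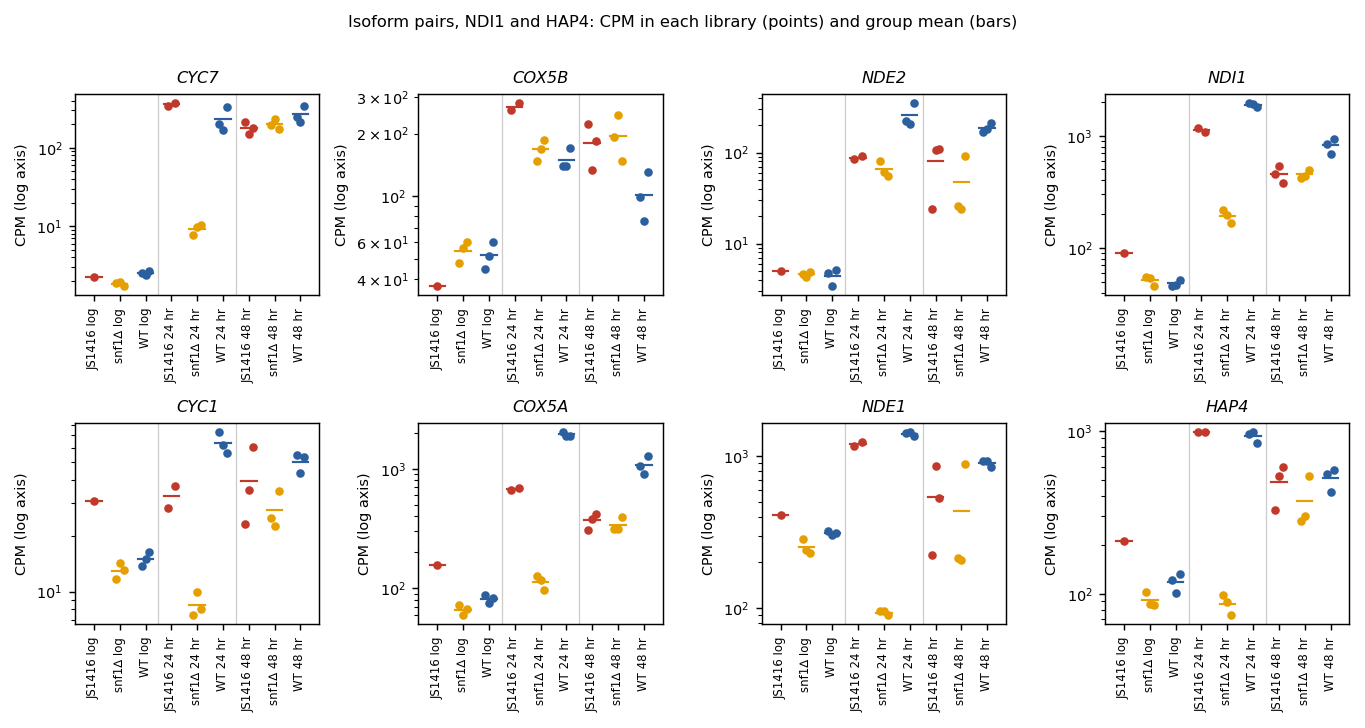
CPM (log axes, which differ between panels) of CYC7, CYC1, COX5B, COX5A, NDE2, NDE1, NDI1 and the regulator HAP4 in every library (points) with group means (bars). At 24 hr CYC7 and NDE1 of JS1416 lie near WT and far above snf1∆, NDE2 of JS1416 lies just above snf1∆, and the COX5B libraries of snf1∆ and WT overlap.

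Ratios between isoforms within a library, per kb of coding sequence, do not depend on scaling. CYC7 exceeded CYC1 by 11.7-fold and 9.66-fold in JS1416 at 24 hr, against 0.996, 0.946 and 1.23-fold in snf1∆ and 2.62, 2.61 and 5.74-fold in WT. In WT log phase CYC1 was the more abundant form, by 5.66 to 6.53-fold. For subunit 5, COX5A exceeded COX5B by 2.53-fold and 2.44-fold in JS1416 at 24 hr and by 14.4, 13.3 and 10.9-fold in WT, while in snf1∆ COX5B was the more abundant form, by 1.2, 1.46 and 1.93-fold. NDE1 exceeded NDE2 by 13.7-fold and 13.1-fold in JS1416, by 1.14, 1.49 and 1.60-fold in snf1∆ and by 6.31, 6.87 and 3.79-fold in WT. The groups did not overlap for any of the 3 ratios between the 3 strains at 24 hr. The mean log2 ratio of COX5B to COX5A differed by 4.26 between snf1∆ and WT at 24 hr, and by 0.37 in log phase, where the libraries overlapped. In an exact two-sided permutation test over libraries the smallest p possible is 0.1 for 3 against 3 and 0.2 for 2 against 3, so none of the 18 comparisons could pass, and every non-overlapping one gave that smallest p (Benjamini-Hochberg adjusted 0.2 and 0.212).

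The promoters of the isoform pairs of cytochrome c and of subunit 5 are shown because the levels above differed between the forms while their proteins share a role. Those of NDE1 and NDE2 are not shown. Each is 200 bases, from position -300 to -101 before the start codon of the RefSeq R64 genome, on the coding strand. Capitals mark matches, on either strand, to TNATTGG (the CCAAT box in reverse with its flank, as bound by Hap2/3/4/5), ATTGTTC (core of the site of the hypoxic repressor Rox1) and AGGGG (stress response element).
CYC1, chrX:526035-526234, plus strand: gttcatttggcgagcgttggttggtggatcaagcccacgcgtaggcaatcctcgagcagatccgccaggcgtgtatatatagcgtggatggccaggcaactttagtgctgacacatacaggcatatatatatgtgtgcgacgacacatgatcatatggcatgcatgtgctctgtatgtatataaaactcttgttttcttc
CYC7, chrV:80078-80277, minus strand: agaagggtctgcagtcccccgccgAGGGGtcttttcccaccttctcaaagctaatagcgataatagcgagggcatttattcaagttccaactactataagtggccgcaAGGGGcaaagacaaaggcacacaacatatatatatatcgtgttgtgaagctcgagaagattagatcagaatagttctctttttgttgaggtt
COX5A, chrXIV:531425-531624, plus strand: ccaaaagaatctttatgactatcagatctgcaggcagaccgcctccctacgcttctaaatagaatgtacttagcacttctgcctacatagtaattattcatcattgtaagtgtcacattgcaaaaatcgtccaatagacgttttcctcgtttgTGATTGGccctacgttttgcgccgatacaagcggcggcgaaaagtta
COX5B, chrIX:154922-155121, plus strand: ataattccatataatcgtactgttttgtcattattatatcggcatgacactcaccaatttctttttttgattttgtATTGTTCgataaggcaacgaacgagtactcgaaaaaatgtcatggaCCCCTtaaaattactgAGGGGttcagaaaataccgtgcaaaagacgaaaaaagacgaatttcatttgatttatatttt
In these windows COX5A has a TNATTGG match at -147, COX5B has ATTGTTC at -224 and AGGGG at -178 and -162, CYC7 has AGGGG at -276 and -192, and CYC1 has no exact match to the 3 motifs. The CYC1 window does hold tggttgg, a near match to TNATTGG, and near matches were not searched for in any gene. Nearer to the start codon, COX5A has ATTGTTC at -96 and COX5B has TNATTGG at -72. The core of the site of the glucose repressor Mig1, spelled out below, was searched but is not in capitals. Among these windows only that of CYC7 has it (CCCCGC at -284).

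Of the motifs searched, TNATTGG stood furthest from its share in all promoters. Within 500 bases before the start codon it was found for 30 of 36 genes (83.3%), against 24.3% of 6000 promoters of that length. All 13 ATP synthase genes had it, as had 8 of 9 complex IV genes, and it was not found in this window for NDE2, QCR2, CYT1, QCR6, CYC1 and COX4. The match nearest to the start codon had a median position of -198, and 22 of the 30 lay between -250 and -120. The plain letters CCAAT, which TNATTGG contains in reverse, were found for 88.9% of the genes (62.4% of all promoters), AGGGG for 44.4% (34.1%) and ATTGTTC for 22.2% (11.8%). The core of the site of the glucose repressor Mig1 (CCCCAC or CCCCAG or CCCCGC or CCCCGG) was found for 30.6% (22.7% of all promoters), which was 0 of the 13 ATP synthase genes and both cytochrome c genes. A match is a stretch of letters and not a measured binding site.
The match nearest to the start codon, in capitals with 10 bases on either side and read in the direction of TNATTGG, is shown for the 9 genes outside the isoform pairs whose values are given above and whose match lay between -250 and -120. It lay elsewhere for NDE1 (-9), ATP18 (-18), COX5B (-72), CYC7 (-453) and ATP1 (-470). Farther from the start codon, ATP18 also had matches at -195 and -166, inside that range, and NDE1 had matches at -263 and -102.
NDI1, chrXIII:30018-30044: tgccttcataTGATTGGtccgaatgaa
QCR7, chrIV:1496713-1496739: gcgtcgctccTGATTGGtcaaaacaag
QCR10, chrVIII:107617-107643: tatttagtttTAATTGGatcaaaatca
COX6, chrVIII:209478-209504: aaaagggaccTAATTGGtccggtcaaa
COX7, chrXIII:779275-779301: aggcagtactTGATTGGctacgccgcg
ATP4, chrXVI:408917-408943: aaaagcgtcgTGATTGGttcaatattg
ATP14, chrXII:722554-722580: ttatgatgcaTAATTGGttcgtgtatg
ATP16, chrIV:442855-442881: taatgcgcttTGATTGGctgggcatct
ATP17, chrIV:1228372-1228398: tccttcgataTGATTGGttctctccgt
These sequences are on the plus strand for NDI1, QCR7, COX6, ATP4 and ATP14 and on the minus strand for QCR10, COX7, ATP16 and ATP17.

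HAP4, the regulated activator subunit of the Hap complex, had 982 and 984 CPM in JS1416 at 24 hr, 97.9, 89.7 and 74.3 CPM in snf1∆ and 957, 980 and 845 CPM in WT. The JS1416 libraries stood just above the highest WT library, and the snf1∆ libraries overlapped their own log level of 85.8 to 103 CPM. The log2 fold change of JS1416 over snf1∆ was 3.49 ± 0.26 and that of snf1∆ over WT -3.41 ± 0.25 (edgeR adjusted p = 2.37e-09 and 5.37e-10), and JS1416 over WT was 0.08 ± 0.25 (edgeR adjusted p = 0.816). Under library size alone these were 2.69, -3.00 and -0.31. Of the other regulators listed, HAP3 and the repressor ROX1 were also lower in snf1∆ than in WT (-0.94 and -1.0, or -0.51 and -0.59 with library size alone), HAP1 was higher (1.12, or 1.54), and HAP2 (-0.75, or -0.34) and HAP5 (0.01, or 0.43) were each called under one of the scalings only.

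The wider respiratory machinery was read from lists of genes chosen by function, and the counts called are to be set against the shares of all genes. In snf1∆ over WT at 24 hr 30.3% of all genes were lower and 33.7% higher (19% and 49% with library size alone). In JS1416 over snf1∆ 20.1% were higher and 27.4% lower (7.56% and 66.3% with library size alone). All 4 genes of complex II, succinate dehydrogenase, were lower in snf1∆ than in WT at 24 hr (median log2 fold change -3.36, or -2.94 with library size alone) and higher in JS1416 than in snf1∆ (median 2.48, or 1.68). SDH1, its flavoprotein subunit, was at -4.17 ± 0.28 in snf1∆ over WT and at 3.38 ± 0.29 in JS1416 over snf1∆. The 3 inhibitors and regulators of the ATP synthase, INH1, STF1 and STF2, were called in the same directions under both scalings (medians -2.41 and 1.92 under TMM). Of 3 other electron donors all were lower in snf1∆ than in WT. DLD1, a lactate dehydrogenase, was at -0.77 ± 0.22 there, and in JS1416 over snf1∆ at 0.05 ± 0.25, which was not called, while library size alone called it lower (-0.76, edgeR adjusted p = 0.00089). Among them CYB2, which oxidizes lactate, was at -3.43 ± 0.22 and in JS1416 over snf1∆ at 3.49 ± 0.24. GUT2, the mitochondrial glycerol-3-phosphate dehydrogenase, was at -4.60 ± 0.63 in snf1∆ over WT, and its 1.57 ± 0.60 in JS1416 over snf1∆ was not called with library size alone (0.76).

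The calls in JS1416 among genes that build the complexes depended on the scaling. Of 18 assembly factors of complex IV, 11 were lower in snf1∆ than in WT and none higher (10 lower and 3 higher with library size alone), with a median of -0.94. In JS1416 over snf1∆ 12 of the 18 were higher and none lower under TMM, but 2 were higher and 3 lower with library size alone (median 0.66, or -0.15), where library size alone called 66.3% of all genes lower and 7.56% higher (27.4% lower under TMM). The lowest in snf1∆ was COX20 (-2.53) and the highest in JS1416 over snf1∆ was COX15, which makes heme A (1.72, or 0.91 with library size alone). Of 7 factors of complex III and the cytochromes, 4 were lower and 1 higher in snf1∆ than in WT, from CYC3, cytochrome c heme lyase (-2.23), to CBP3 (0.88), and 4 were higher in JS1416 than in snf1∆ (1 higher and 2 lower with library size alone). Of 6 assembly factors of the ATP synthase, 2 were lower in snf1∆ (30.3% of all genes were), with ATP10 the lowest (-2.01). With library size alone 1 was lower and 1 higher. In JS1416 over snf1∆ 1 was higher (20.1% of all genes were), which was ATP10 (1.36, or 0.54 and not called with library size alone). Under library size alone none of the 6 was higher there and 3 were lower, where 66.3% of all genes were lower.

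Coenzyme Q synthesis had 2 lower and 2 higher genes of 10 in snf1∆ over WT (30.3% and 33.7% of all genes), from COQ9 (-1.40) to COQ10 (0.53). Library size alone gave 2 lower and 4 higher there. In JS1416 over snf1∆ 4 were higher and 2 lower (20.1% and 27.4% of all genes). With library size alone none was higher and 6 were lower, where 66.3% of all genes were lower. Heme synthesis had 5 lower and 3 higher genes of 8 in snf1∆ over WT (2 lower and 3 higher with library size alone). They ran from HEM1, the first enzyme of the pathway (-2.96 ± 0.23), to HEM4 (1.16 ± 0.13). In JS1416 over snf1∆ 4 heme genes were higher and 2 lower (2 higher and 4 lower with library size alone). Among 4 further subunits and supercomplex factors, 3 were lower in snf1∆, with COX26 the lowest (-3.14), and RCF2 was higher (0.66), while 2 were higher in JS1416 than in snf1∆ under both scalings. Of 4 hypoxic genes outside the chain, 2 were lower in snf1∆ than in WT, with HMG2 the lowest (-1.03), and ANB1 was higher (1.63). In JS1416 over snf1∆ 2 were higher, with HEM13 the highest (1.56, or 0.75 with library size alone). Library size alone gave 1 lower and 1 higher hypoxic gene in each of these comparisons. HEM13 is in the list of heme synthesis as well. Of 7 genes encoded in mitochondrial DNA 6 passed the filter, 3 of which were called lower in snf1∆ than in WT, with COX3 the lowest (-2.27 ± 0.69), and none in JS1416 over snf1∆. Poly(A) selection captures those transcripts poorly.

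In log phase JS1416 was sequenced once, so its values have no replicate check. That library had the highest CPM of the 7 log libraries for 33 of the 36 genes (32 with library size alone), where 36.8% of all genes lay above all 6 WT and snf1∆ log libraries (24% with library size alone). The median log2 difference from the WT log mean was 0.62 over the 36 genes and 0.08 over all genes. QCR2 had 204 CPM in JS1416, against 83.0 to 91.8 CPM in snf1∆ and 76.3 to 94.6 CPM in WT. CYC1 had 30.8 CPM in JS1416, against 11.7 to 14.2 CPM in snf1∆ and 13.7 to 16.4 CPM in WT, and the 2 JS1416 libraries at 24 hr (28.3 and 37.2 CPM) lay on either side of the log value. The 3 others were COX5B, CYC7 and NDE2. COX5B had 36.9 CPM in JS1416, below all 6 other log libraries (44.4 to 60.1 CPM; 23.9% of all genes lay below), and CYC7 and NDE2 lay among them. HAP4 had 210 CPM in the JS1416 log library, against 85.8 to 103 CPM in snf1∆ and 102 to 132 CPM in WT.

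From 24 to 48 hr the levels in WT were held or fell. Of the 36 genes 18 were lower at 48 hr than at 24 hr and none was higher (19.8% and 19.6% of all genes), with a median log2 fold change of -0.48, which was 0.00 with library size alone, where 2 were lower and 2 higher (3.69% and 43.1% of all genes). Without WT 48 hr replicate 2 the count of lower genes was 10, and without the 2 libraries named above, whose spread enters the same fit, it was 24. NDI1 had 851, 693 and 934 CPM in WT at 48 hr, against 1960, 1920 and 1810 CPM in WT at 24 hr, the largest fall of the 36 (-1.20). In snf1∆ the genes rose between those times: 32 were higher at 48 hr than at 24 hr (19.8% of all genes), with a median of 1.2. CYC7 rose most, with 197, 235 and 175 CPM in snf1∆ at 48 hr, against 7.70, 9.82 and 10.3 CPM in snf1∆ at 24 hr (4.43, or 3.96 with library size alone, which called 25 of the 36 higher and 9.43% of all genes). Without the 2 libraries 32 were higher and 2 lower, with a median of 1.15 and CYC7 at 4.51. The deficit of snf1∆ against WT was smaller at 48 hr, with a median of -1.05, and the change of this gap was above 0 for 34 of the 36 genes (20.1% of all genes; 21 of 36 with library size alone, and 5.79% of all genes). Without the 2 libraries it was above 0 for 34 and below 0 for NDE2 (-0.90). At 48 hr 30 of the 36 were lower in snf1∆ than in WT (17.7% of all genes) and COX5B was higher (0.94, where 18.1% of all genes were called higher; not called at 0.41 with library size alone). In JS1416 28 were lower than in WT (15.2% of all genes), with a median of -1.01, but 10 when only the groups compared were fitted, and COX5B was higher (0.82, where 15.8% of all genes were; not called at 0.45 with library size alone). Leaving out the 2 libraries named above gave 32 and 30 lower genes in snf1∆ and JS1416 against WT, with medians of -1.17 and -0.87, and COX5B at 1.1 and 0.59.

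The comparison of JS1416 with snf1∆ at 48 hr rests on those 2 libraries. With all 6 libraries none of the 36 genes was called (0% of all genes, none of the 36 at an unadjusted p under 0.05 and none with DESeq2), and the median log2 fold change was 0.07. NDE1 had 223, 866 and 533 CPM in JS1416 replicates 1 to 3 and 215, 207 and 891 CPM in snf1∆ replicates 1 to 3, so that JS1416 replicate 1 was close to snf1∆ replicates 1 and 2, and snf1∆ replicate 3 was close to JS1416 replicate 2. NDE2 gave 24.2, 107 and 108 CPM in JS1416 and 26.2, 24.0 and 92.3 CPM in snf1∆. Without snf1∆ replicate 3 and JS1416 replicate 1 the log2 fold change of JS1416 over snf1∆ was 1.75 for NDE1 and 2.09 for NDE2, and 10 of the 36 genes were called higher, the others being QCR2, CYC1, COX4, ATP1, ATP5, ATP7, ATP16 and TIM11. These 2 libraries were left out because they resembled the other strain, which by itself widens the difference, so the 10 are a description. NDI1, CYC7 and COX5B were not called with the libraries (0.02, -0.16 and -0.12) or without them (0.10, -0.41 and -0.51). Whether the labels of the 2 libraries were exchanged was not tested.

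**Figure D5:**
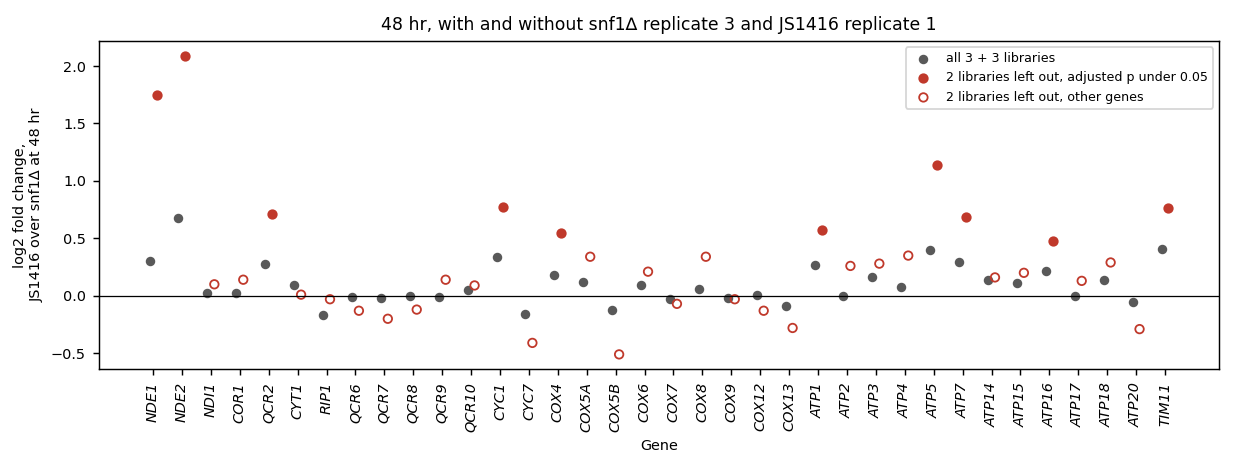
Log2 fold change of JS1416 over snf1∆ at 48 hr for the 36 genes, with all 6 libraries (grey) and with snf1∆ replicate 3 and JS1416 replicate 1 left out (red, filled where the adjusted p was under 0.05). The grey points lie between -0.17 and 0.68, and leaving out the libraries moves NDE1 and NDE2 most.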

How the data were processed

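Counts were deposited as 1 table of 6692 open reading frames by 24 libraries. Per the labels and the methods, the authors prepared poly(A) RNA with a directional dUTP kit, sequenced 75 bp single-end reads, aligned them to sacCer3 with Bowtie2 and counted them per open reading frame with bedtools (versions and the strand setting are not given in the sources used here), so the deposited counts are not normalized. No column was left unused.

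The counts were fitted with edgeR 4.0.16 in R 4.3.3 (limma 3.58.1): 9 groups in 1 quasi-likelihood model without a block, TMM scaling, filterByExpr (6616 genes tested), Benjamini-Hochberg adjustment over all of them and a call at adjusted p under 0.05. CPM use TMM library sizes. A self-test on simulated counts was run. The fit was repeated with DESeq2 1.42.0, with RLE factors or library size alone as scaling, without the filter, on genes that reach 10 counts throughout, on only the groups compared, with the replicate number as a block, and with each library left out in turn. Isoform ratios used exact permutation tests (scipy). Promoter windows were read from the RefSeq R64 genome, which is the build of sacCer3, in place of a promoter table.

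Same-numbered libraries deviated together (every correlation over 0.1) in 1 of 21 pairs of groups with 3 shared numbers, WT and snf1∆ in log phase, where the block also called 0 genes. Elsewhere this rule was not met, which does not show that the numbers carry no shared culture or batch. The 36 genes, the lists and 2 comparisons (snf1∆ at 48 hr against 24 hr, and its gap to WT) were chosen with earlier results of these data known. Genes given library by library are the isoform pairs with NDI1, in complexes III, IV and the ATP synthase the 3 lowest and the highest in snf1∆ over WT at 24 hr and the 2 highest and the lowest in JS1416 over snf1∆, and HAP4.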

Additional observations from a re-analysis of the deposited data

Results flagged for a closer look

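The response of the 36 genes to 24 hr of growth differed between strains by a test of the difference itself: it was smaller in snf1∆ than in WT for 35 of them. The log2 fold change of snf1∆ over WT differed between 24 and 48 hr by the same kind of test, and was higher at 48 hr for 34 genes. This comparison was added after the values were seen. The 34 include COX5B, which had no deficit at 24 hr (0.16, not called) and was higher in snf1∆ than in WT at 48 hr (0.94). Groups of 3 libraries or fewer are too small for a test of a single library that lies far from the others.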

How the results depend on the processing

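With library size alone, the change of the gap of snf1∆ to WT from 24 to 48 hr was called above 0 for 21 genes rather than 34. ATP1 (-0.12), ATP7 (-0.09) and COX5B (-0.17) turned negative there. COX5B turned to -0.13 in JS1416 over snf1∆ at 24 hr, and was the 1 gene called higher in snf1∆ than in WT at 24 hr. The count of genes higher than in WT became 0 for JS1416 at 24 hr, for JS1416 at 48 hr and for snf1∆ at 48 hr. In WT at 48 hr over 24 hr 2 genes were higher and 2 lower, and QCR6 turned to 0.00, just above zero. On genes that reached 10 counts in every library that comparison gave 10 lower genes.

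Fitting only the groups compared gave 10 lower and 0 higher genes in JS1416 against WT at 48 hr, and 1 lower gene in snf1∆ against WT in log phase. Without the 48 hr libraries snf1∆ replicate 3 and JS1416 replicate 1, JS1416 had 10 genes higher than snf1∆ at 48 hr, 2 genes were lower in snf1∆ at 48 hr than at 24 hr, and the change of the gap was below 0 for 1 called gene, NDE2 (-0.90). The causes were not tested.

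Leaving out 1 library at a time gave 15 to 21 lower and 1 to 2 higher genes in JS1416 against WT at 24 hr, 34 to 35 higher genes in JS1416 against snf1∆ at 24 hr and 0 to 3 at 48 hr. It gave 1 to 2 lower genes in snf1∆ at 24 hr over log, 0 to 1 lower genes in snf1∆ at 48 hr over 24 hr, and 10 to 21 lower and 0 to 1 higher genes in WT at 48 hr over 24 hr. With the replicate number as a block 22 genes were lower in JS1416 than in WT at 24 hr (COX4 lost its call, edgeR adjusted p = 0.0554), and in WT at 48 hr over 24 hr ATP2 lost its call (0.051) and ATP3 gained one (0.0352). It changed no other call of the 36. Depth limits CYC7 in log phase most, with 19 counts in its lowest library.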
